A study of Brachypodium distachyon with 35 samples.

Results

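BdbZIP12 is 1 of the 96 basic leucine zipper (bZIP) genes of the grass Brachypodium distachyon (Bd21-3) whose transcripts were followed with quantitative real-time PCR (qPCR). It was selected on its measured log2 changes, which were low in root, stem and spikelet but not in leaf, and high under cadmium (Cd). Those values are therefore given as a description, without a test. The measure was Ct, the number of PCR cycles needed before the signal became detectable, and each cycle fewer means roughly 2-fold more starting template. In the text, level means –ΔCT, the Ct of the reference gene BdGAPD (glyceraldehyde-3-phosphate dehydrogenase, an enzyme of glycolysis) minus the Ct of the gene in the same sample. Log2 change means –ΔΔCT, the level in a sample minus the level in its control, so 1 is 2-fold higher and -1 is 0.5-fold. Levels of different genes depend on their primers and are not set against each other.

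bZIP proteins are transcription factors. They bind DNA through a basic region and pair with another bZIP protein through a leucine zipper, a helix with leucines at regular steps, so that the pair decides which DNA sites are bound. In plants the family is known for roles in abscisic acid signalling, stress responses, pathogen defence, light signalling, and flower and seed development. Cadmium is a toxic metal that plants bind with thiol peptides and store in the vacuole. BdbZIP12 (locus bradi1g30750) lies on chromosome 1 between 26113326 and 26118403 in the published gene list, whose genome build is not given in the sources used here, and it encodes 273 amino acids. Its paralogue from a duplicated block, BdbZIP57 (locus bradi3g06160), lies on chromosome 3 between 4438924 and 4444696 and encodes 240 amino acids. These were the only 2 of the 96 genes with the intron arrangement called pattern g, with 4 introns each. No function of either gene was given in the sources used here.

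The 34 samples described here were 1 per condition. All were Bd21-3 plants, labelled 20 days old, or 40 days for the spikelet, although the treatment protocol calls the treated seedlings 2-week-old. Untreated seedlings gave the controls CK1, CK2 and CK3. Environmental factors were cold (4 °C), heat (45 °C), H2O2 (10 mM), NaCl (200 mM), each at 1 h and 6 h, and PEG (20%) at 6 h. Heavy metals were Cu (0.05 mM), Zn (0.5 mM), Mn (1.0 mM), Cd (0.07 mM) and Pb (0.75 mM), each at 6 h and 24 h. Phytohormones were SA (salicylic acid, 1 mM), 6-BA (6-benzylaminopurine, a cytokinin, 20 µM), ABA (abscisic acid, 100 µM) and MeJA (methyl jasmonate, 100 µM), each at 1 h and 6 h. Root, stem, leaf and spikelet were the organs. The labels assign CK1 to the organs, SA, 6-BA and all environmental samples except NaCl-6h, CK2 to MeJA and ABA, and CK3 to NaCl-6h and the metals. The labels do not say how many plants a sample held, and the plate carried no marker genes of organs, so the organ labels were not checked.

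With 1 sample per condition there is no spread between replicates. The only error that could be measured came from 8 pairs of genes listed with identical primers, whose log2 changes should be equal. It gave an SD of 0.96 for the well error of a single log2 change, or 0.78 over the 7 pairs without BdbZIP50 and BdbZIP51. Neither the error of the BdGAPD measurement nor the variation between plants is part of it. The 95% intervals below are the value ± 1.88 and cover this well error alone.

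The transcript was measured well within the range of the assay in every sample. The Ct of BdbZIP12 ran from 22.17 (Cd-24h) to 28.63 (root), with a median of 26.2. Its level spanned 11.96, rank 3 of the 96 genes, whose median span was 6.66 on the log2 scale. BdGAPD itself ran from a Ct of 14.73 (ABA-1h) to 23.24 (Cd-6h). The level of BdbZIP12 was therefore also set against the median of the 96 genes in each sample, which does not use BdGAPD. On that scale its span was 8.76, rank 11 of 96, against a median span of 5.59.

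**Figure D1:**
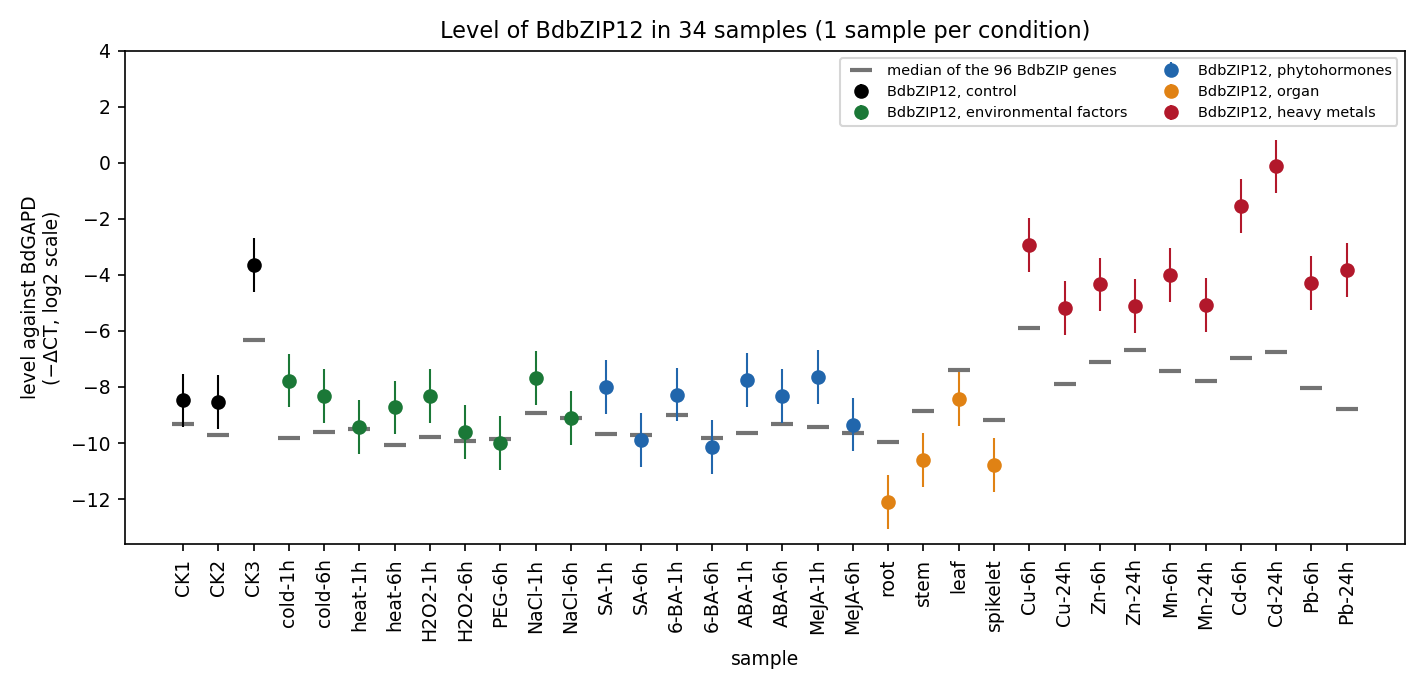
Level of BdbZIP12 against BdGAPD (–ΔCT, log2 scale, vertical axis) in 34 samples (horizontal axis, 1 sample each), coloured by class. Bars are ± 1 SD of the well error of a log2 change (0.96), since the error of a single level was not measured. Grey marks are the median level of the 96 BdbZIP genes in the sample. The metal samples and CK3 lie between -5.18 and -0.13, above all other samples, and root is lowest at -12.09.

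Ordered by level, 29 of the 33 neighbouring samples differed by less than the well error of 0.96. The 4 larger steps were 1.42 from Cd-24h to Cd-6h, 1.37 from Cd-6h to Cu-6h, 2.45 from Cu-24h, the lowest metal sample, to MeJA-1h, and 1.30 from spikelet to root. Neighbours elsewhere in the order do not differ beyond that error, although samples further apart can, such as Cu-6h (-2.92) and Cu-24h (-5.18).

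The 3 untreated controls were not alike. The level of BdbZIP12 was -8.48 in CK1 and -8.53 in CK2, but -3.64 in CK3. CK1 and CK2 differed by 0.05, less than the well error, whereas CK3 exceeded CK1 by 4.84, or 28.6-fold. This was larger than either Cd change. The Ct of BdbZIP12 was 26.38 (CK1), 24.25 (CK2) and 23.72 (CK3), and that of BdGAPD was 17.90, 15.72 and 20.08. Most of the family was higher in CK3, with 71 of the 96 genes at least 2-fold above CK1 and a median difference of 2.59, and BdbZIP12 ranked 16 from the top. Because the labels assign CK3 to the metals, the metal class and whatever sets CK3 apart cannot be told apart in the levels.

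Under cadmium, the level of BdbZIP12 was -1.55 at 6 h and -0.13 at 24 h, the highest levels in the series. Against CK3 these were log2 changes of 2.09 (4.26-fold, 95% interval 0.21 to 3.97) and 3.51 (11.4-fold, 1.63 to 5.39). Both were past 2-fold, as were 29.2% of the 96 genes in Cd-6h and 29.2% in Cd-24h. In both samples 21.9% of the genes passed 2-fold. These values chose the gene, so nothing is read from that share. BdbZIP12 ranked 17 of 96 at 6 h, between BdbZIP90 (2.26) and BdbZIP38 (1.98), and 11 of 96 at 24 h, between BdbZIP58 (3.89) and BdbZIP47 (3.33). The functions of these neighbours were not given in the sources used here.

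The Cd-6h change depended on the reference. BdGAPD had its highest Ct of the 34 samples in Cd-6h, 3.16 above its Ct in CK3, and it was 1.96 above CK3 in Cd-24h. The Ct of BdbZIP12 itself was 24.79 in Cd-6h, later than the 23.72 of CK3, and 22.17 in Cd-24h, earlier than CK3. With Ct alone, the log2 change was therefore -1.07 at 6 h and 1.55 at 24 h. The median Ct of the 96 genes also rose, by 3.80 at 6 h and 2.38 at 24 h, and against that median BdbZIP12 was 2.73 and 3.93 higher. So its position above the median gene did not rest on BdGAPD, while the sign of its own Ct difference at 6 h was opposite to that of the log2 change. The part of BdGAPD or of the amount of RNA in these values was not tested.

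In the other metals, BdbZIP12 lay at or below CK3 in 7 of 8 samples. The log2 change was 0.72 in Cu-6h and -1.54 in Cu-24h, -0.70 in Zn-6h and -1.47 in Zn-24h. It was -0.37 in Mn-6h and -1.43 in Mn-24h, and -0.64 in Pb-6h and -0.18 in Pb-24h. None was past 2-fold, and 3 were at or below 0.5-fold, all at 24 h. Values at or below 0.5-fold were common among the genes in these samples, at 72.9% in Cu-24h, 42.7% in Zn-24h and 65.6% in Mn-24h. Against the median of the 96 genes, Cu-24h and Mn-24h were at 0.005 and 0.02, so there was no fall on that scale, whereas Zn-24h stayed at -1.14 and Pb-24h moved up to 2.28. With BdGAPD as the reference, 4.17% of the 96 genes were past 2-fold in both Cd samples and in none of the other 8 metal samples. They were BdbZIP12, BdbZIP3, BdbZIP32 and BdbZIP90. Against the median gene, BdbZIP12 was also past 2-fold in Pb-6h (1.055) and Pb-24h (2.28), so on that scale its rise was not limited to Cd. BdbZIP90 is among the 5 genes most like BdbZIP12 over all 34 samples, but not without the organs and Cd. BdbZIP3 and BdbZIP32 were named after their values were seen.

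The next comparison asked whether the level under metals differed from that under other treatments, with Cd left out because it chose the gene. The mean level was -4.34 ± 0.34 (SD, n = 4 treatments) under Cu, Zn, Mn and Pb and -8.79 ± 0.63 (SD, n = 9 treatments) under the environmental factors and phytohormones. The groups did not overlap, as was also so in many other genes of the family, BdbZIP57 among them. The share of the 96 genes without overlap was not counted, so nothing is read from it. The difference was 4.45 (exact two-sided permutation test over 715 splits, p = 0.0014, the smallest it can give, adjusted p = 0.00286 over 96 genes by Benjamini-Hochberg). The adjusted p was below 0.05 in 61.5% of the genes and the raw p in 63.5%, the median difference of the 96 genes was 0.96, and BdbZIP12 ranked 8 from the top. Against the median gene the difference was 2.31 (adjusted p = 0.00336, exact permutation test). The untreated CK3 already had the level of this metal group. As log2 changes against the labelled controls the difference was -0.13 (adjusted p = 0.87, exact permutation test). The treatment samples were single, so the p-values set the difference against relabelled treatments and hold no spread between replicates. They cannot tell the metals apart from whatever sets CK3, their labelled control, apart from CK1 and CK2.

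**Figure D2:**
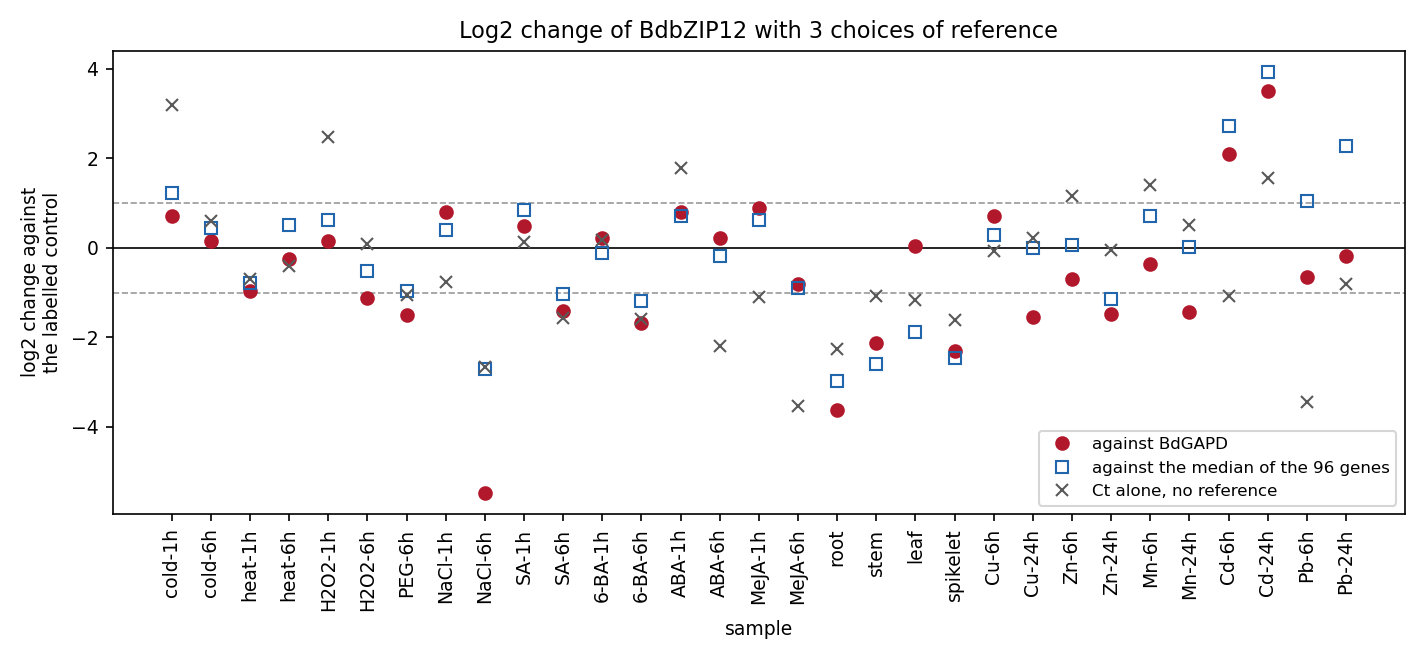
Log2 change of BdbZIP12 (vertical axis) in 27 treated samples and 4 organs (horizontal axis) against the labelled control, with BdGAPD as the reference (filled circles), the median of the 96 genes (squares) or Ct alone (crosses). Dashed lines are 2-fold and 0.5-fold. Cd-6h lies at 2.09, 2.73 and -1.07, and leaf at 0.05, -1.89 and -1.16 by the 3 choices.

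In the organs, BdbZIP12 had its lowest level in root (-12.09), followed by spikelet (-10.79), stem (-10.61) and leaf (-8.43). Root, stem and spikelet were the lowest 3 of the 34 samples, and leaf lay next to CK1. Against CK1 the log2 change was -3.61 in root (interval -5.49 to -1.73), -2.13 in stem (-4.01 to -0.25), 0.05 in leaf (-1.83 to 1.93) and -2.31 in spikelet (-4.19 to -0.43). In root the transcript was thus 12.2-fold lower than in the control seedlings. Values at or below 0.5-fold were found in 46.9% of the 96 genes in root, 9.38% in stem and 28.1% in spikelet, and in all of these in 8.33%. Those 8 genes were BdbZIP12, BdbZIP23, BdbZIP27, BdbZIP59, BdbZIP76, BdbZIP88, BdbZIP94 and BdbZIP95, the others named after their values were seen. BdbZIP12 and BdbZIP76, 2.08% of the genes, were also past 2-fold in both Cd samples, a combination that the choice of BdbZIP12 fixed.

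BdbZIP12 stood near the bottom of the family in the organs. It had the lowest log2 change of all 96 genes in stem, next to BdbZIP59 (-1.94). It was at rank 94 in root, between BdbZIP13 (-3.31) and BdbZIP37 (-3.64), and at rank 93 in spikelet, between BdbZIP13 (-2.30) and its paralogue BdbZIP57 (-2.90). Leaf differed less from the other organs on this view. There BdbZIP12 ranked 83 of 96, between BdbZIP36 (0.09) and BdbZIP23 (-0.36), and 71.9% of the genes were at least 2-fold above CK1. The BdGAPD Ct minus that of CK1 was 1.21 in leaf and -1.36 in root. Against the median of the 96 genes, the log2 change was -2.97 in root, -2.60 in stem, -2.46 in spikelet and -1.89 in leaf. So leaf was not low against BdGAPD but was low against the median gene. It was the least low of the organs on both scales, but with Ct alone leaf (-1.16) was below stem (-1.08). Against the median gene, leaf differed from stem and from spikelet by less than the well error of 0.96.

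The naming of the wells bears on the organ values. The wells of the Ct table were named through 28 stress fold changes, all of which were equal for BdbZIP12 and 1 well. In the deposited normalized table, the organ columns of that well held other values. They gave log2 changes of -1.33 in root, -0.39 in spikelet, 0.13 in stem and 1.62 in leaf, so stem and spikelet were no longer low. The organ values of the well described here stand in the published organ list under the name BdbZIP31, and those under BdbZIP12 belong to the well of BdbZIP38. Only 1 of 96 names was the same in both. The genes with identical primers differed in the organs by a median of 0.22 with the names used here and 1.23 with the other names, and were nearer with the names used here in 7 of 8 pairs. The organ values therefore hold for the gene only under this naming.

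Among treatments other than the metals, BdbZIP12 stayed near its control at 1 h with BdGAPD as the reference. The log2 change at 1 h was 0.71 in cold, -0.96 in heat, 0.16 in H2O2 and 0.80 in NaCl. It was 0.48 in SA, 0.21 in 6-BA, 0.79 in ABA and 0.90 in MeJA. None of these 8 values was past a threshold in either direction, where 17.7% to 57.3% of the 96 genes were, and 7 were above 0. Against the median gene, cold-1h was past 2-fold (1.215) and the other 1 h samples stayed between the thresholds. With Ct alone, cold-1h was at 3.20, H2O2-1h at 2.47, ABA-1h at 1.78 and MeJA-1h at -1.09. The other 1 h samples stayed between the thresholds with Ct alone. At 6 h the log2 change with BdGAPD as the reference was 0.16 in cold, -0.25 in heat, -1.13 in H2O2 and -1.51 in PEG. It was -1.41 in SA, -1.67 in 6-BA, 0.22 in ABA and -0.81 in MeJA. The 6 h values of H2O2, PEG, SA and 6-BA were at or below 0.5-fold, as were 29.2%, 25.0%, 26.0% and 22.9% of the 96 genes in those samples. The Ct values of H2O2-6h were identical to those of PEG-1h, the sample left out, so they may belong to either treatment.

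NaCl-6h had the lowest log2 change of all samples, -5.47, a value that rests on CK3, the control in the labels. The deposited normalized table instead follows a Ct difference from CK1 for this sample, within 0.1 in 89 of the 96 genes. Its level of -9.11 was close to that of CK1, and against CK1 the log2 change was -0.63. At or below 0.5-fold against CK3 were 71.9% of the genes.

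Over the 27 treated samples, BdbZIP12 was at least 2-fold higher in 2 (both Cd), at or below 0.5-fold in 8 and between the thresholds in 17. The gene at the median of the family had 3 higher and 8 lower samples, so the number of falls was that of a usual family member. Of the treated samples other than Cd, NaCl-6h against CK3 was the only one whose 95% interval of the well error left out 0.

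The environmental factors were also compared with the phytohormones, with the treatment as the unit. The mean log2 change was -0.90 ± 1.06 (SD, n = 5) under environmental factors and -0.16 ± 0.55 (SD, n = 4) under phytohormones. The difference of -0.74 was within the spread between treatments (exact two-sided permutation test over 126 splits, p = 0.278, adjusted p = 0.702). With CK1 as the control of NaCl-6h it was -0.25, and without H2O2 it was -0.84. None of the 96 genes had an adjusted p below 0.05, and 11.5% had a raw p below 0.05. Two-sided exact tests of this size cannot give a p below 0.00794.

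The late sample was then compared with the early sample of each treatment, which needs no control. The mean difference in level over 12 treatments, without Cd and PEG, was -1.02 ± 0.93 (SD, n = 12), and the late sample was lower in 10 of them. The difference was -0.55 in cold, 0.71 in heat, -1.29 in H2O2 and -1.43 in NaCl. In Cu it was -2.26, in Zn -0.77, in Mn -1.06 and in Pb 0.46. Among the phytohormones it was -1.89 in SA, -1.88 in 6-BA, -0.57 in ABA and -1.71 in MeJA. The late sample was thus higher only under heat and Pb. The late H2O2 sample is the one whose Ct values may belong to PEG-1h, as given above. The raw p was 0.00537 (exact two-sided sign-flip permutation test over 4096 sign patterns), but the adjusted p over 96 genes was 0.0724, so the difference did not pass the test. No gene had an adjusted p below 0.05, and 21.9% had a raw p below 0.05.

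The median difference of the 96 genes was -0.27, and BdbZIP12 had the seventh lowest. It fell below the median gene's difference in 10 of the 12 treatments. Against the median gene the mean difference was -0.68 and did not pass the test (adjusted p = 0.310, exact permutation test). With Ct alone the mean difference was -1.08, and 8 of the 12 late samples were lower (raw p = 0.0664, adjusted p = 0.492, exact permutation test). Cd ran the other way, with a late sample 1.42 above the early one, against 0.35 for the median gene. Since Cd chose the gene, this contrast was not tested.

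**Figure D3:**
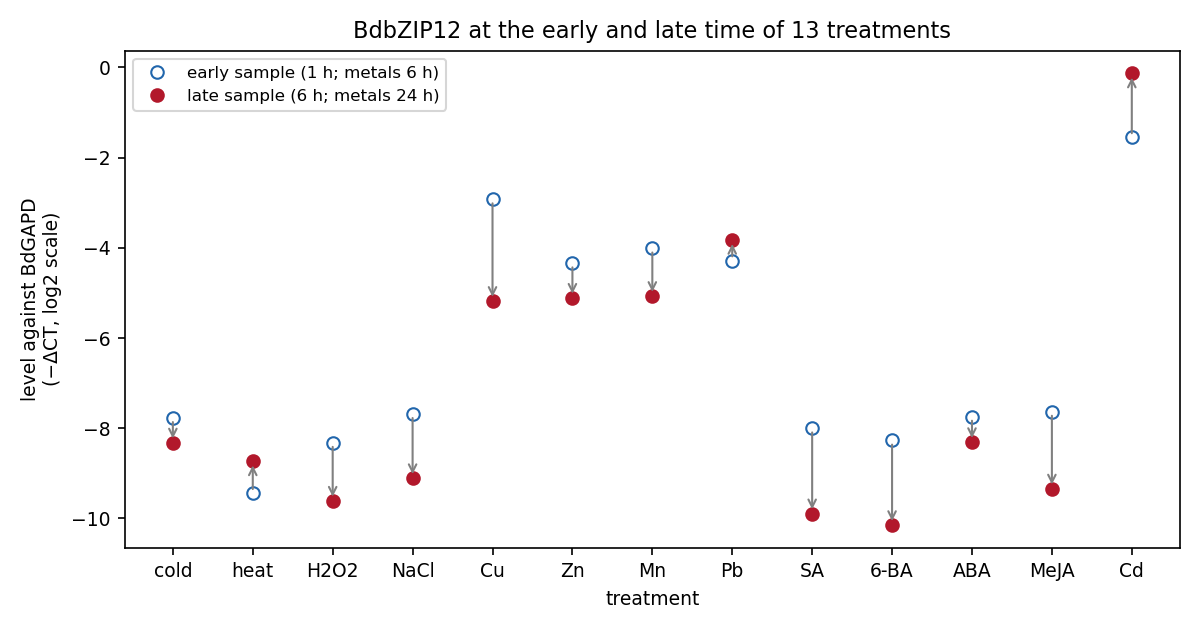
Level of BdbZIP12 against BdGAPD (–ΔCT, log2 scale, vertical axis) in the early sample (open circles, 1 h, or 6 h for metals) and the late sample (filled circles, 6 h, or 24 h for metals) of 13 treatments (horizontal axis). Arrows run from early to late, and point down in 10 of the 12 treatments other than Cd and up in heat, Pb and Cd.

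The paralogue BdbZIP57 had a similar Ct, from 23.04 to 28.09 with a median of 25.9. Its primers differ from those of BdbZIP12. In the organs its log2 change was -2.90 in spikelet, -2.71 in root, -0.91 in stem and 1.00 in leaf, so it was also low in root and spikelet and differed from BdbZIP12 by at most 1.22. In CK3 it exceeded CK1 by 3.89. NaCl-6h was its lowest treated sample, at -4.45. In the 25 treated samples other than Cd the paralogues differed by at most 1.27. A difference between genes carries the error of both wells, with a 95% interval of ± 2.66, or ± 2.17 without BdbZIP50 and BdbZIP51.

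The paralogues lay furthest apart in the 2 Cd samples, where BdbZIP57 was at -0.49 at 6 h and 0.75 at 24 h, against 2.09 and 3.51 for BdbZIP12. The differences were 2.58, within the ± 2.66 given above, and 2.76, just past it, and both were past the ± 2.17. The median absolute difference over the 27 treated samples was 0.56. BdGAPD cancels in this difference, which leaves only the Ct values of both genes in the Cd sample and in CK3. Cd was part of the choice of BdbZIP12, so it is given without a test.

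**Figure D4:**
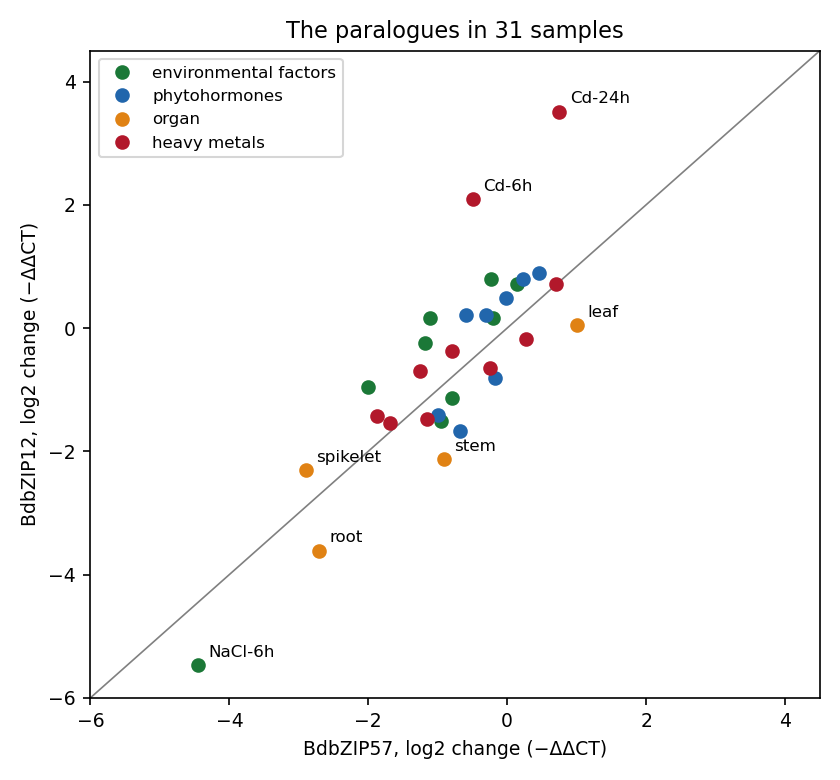
Log2 change of BdbZIP12 (vertical axis) against that of its paralogue BdbZIP57 (horizontal axis) in 27 treated samples and 4 organs, 1 point each, coloured by class. The line marks equal change. The Cd samples lie 2.58 and 2.76 above it, and the other treated samples lie within 1.27 of it.

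The genes with the pattern most like BdbZIP12 were found by Pearson's r over the 34 samples, with each Ct set against the median Ct of the 96 genes. They were BdbZIP72 (r = 0.90), BdbZIP56 (r = 0.89), BdbZIP57 (r = 0.87), BdbZIP90 (r = 0.80) and BdbZIP59 (r = 0.79), against a median r of -0.18 over 95 genes. BdbZIP59 had a median Ct of 32.2, which makes its values less certain. The most opposite were BdbZIP48 (r = -0.80), BdbZIP49 (r = -0.79) and BdbZIP74 (r = -0.77). The samples share controls and a plate layout, so r is a description. The metal samples and CK3 carried much of it. Over the other 23 samples r was 0.69 for BdbZIP72, 0.79 for BdbZIP56, 0.77 for BdbZIP57, 0.58 for BdbZIP90 and 0.60 for BdbZIP59, and 2 of the 5 stayed among the top 5. Without the organs and Cd samples, which chose the gene, 4 of the 5 stayed (28 samples). BdbZIP90 left, with r = 0.59 and rank 11, so its place among the 5 rested on those samples.

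These genes differed under Cd. BdbZIP72 was at 2.30 in Cd-6h and 1.71 in Cd-24h, and BdbZIP90 at 2.26 and 3.20, each within the ± 2.66 of BdbZIP12 that the wells of 2 genes allow. BdbZIP56 was at -0.20 and 0.81, within that range at 6 h and just past it at 24 h. BdbZIP59 was at -0.98 and 0.28, past it at both times. Cd entered the r that chose these genes, and without the organs and Cd BdbZIP90 was not among the top 5. In root all 5 of these like genes were below CK1, from -2.71 (BdbZIP57) to -0.98 (BdbZIP56). That was usual in the family, whose median was -0.85 in root, with 46.9% of the 96 genes at or below 0.5-fold. Root also chose BdbZIP12 and entered r. The opposite genes were high in leaf, at 3.91 in BdbZIP48, 3.79 in BdbZIP49 and 4.62 in BdbZIP74, where the median of the 96 genes was 1.74.

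BdbZIP12 has the motif arrangement called structure b of group I, shared by 16 genes of the family. In root, 8 of the 16 were at or below 0.5-fold and 3 at least 2-fold higher, with a median of -1.06, against 45 lower, 18 higher and a median of -0.85 for all 96 genes. In stem 3 were lower and 3 higher with a median of 0.03 (9, 29 and 0.19 for all 96). In spikelet 4 were lower and 4 higher with a median of -0.14 (27, 25 and -0.06 for all 96). In leaf none was lower and 10 were higher, with a median of 1.51 (9, 69 and 1.74 for all 96). BdbZIP12 was the lowest of the 16 in stem and leaf and the second lowest in root and spikelet, above BdbZIP88 (-4.18 and -3.83). In Cd-6h, 7 of the 16 were lower and 6 higher, with a median of -0.32, and in Cd-24h 6 were lower and 5 higher, with a median of -0.03. Of all 96 genes, 29 were lower and 28 higher in each Cd sample, with medians of -0.18 and 0.18. BdbZIP12 was the fourth highest of them at 6 h and the second at 24 h, where BdbZIP60 was highest (5.01 and 4.56). The medians of the list were close to those of the family in every organ and in Cd.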

How the data were processed

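The authors measured 96 BdbZIP genes and BdGAPD by qPCR (SYBR Green) in 35 samples, and deposited 3 tables. The deposited Ct values, 1 per well and sample (another unit than a ratio or count), were used here. The way in which qPCR repeats became 1 Ct is not given in the sources used here. The deposited normalized values and fold changes are a ratio to the reference gene and to a control, made by the authors. In 16 treated samples, however, the normalized values follow Ct differences without BdGAPD. The fold changes served only to name wells, and the authors' own comparisons are not printed. All 28 were equal for each of 96 genes and 1 well, and no other well shared more than 1. The Ct of PEG-1h and H2O2-6h were identical in 97 rows, so PEG-1h was left out. H2O2-6h was kept, although it is not known to which of these samples the values belong.

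BdGAPD was the reference for ΔCT and the labelled control the base of ΔΔCT, with thresholds of 2-fold and 0.5-fold. A Ct carries no depth, so no counting interval is known. Permutation tests were exact and two-sided, run on all 96 genes with Benjamini-Hochberg adjustment, and the treatment was the unit. The code was tested on simulated data. Alternatives changed the control, the reference, the table, the treatments included and the measure of likeness, and 4 of them were chosen after seeing the data. The genes named are BdbZIP12, its paralogue, the 5 most and 3 least like it, and its neighbours in rank in the organs and Cd, and the list is that of its motif structure. BdbZIP12 and the lists were chosen with earlier results of these data known. Python 3.11.15, numpy 2.4.6 and pandas 2.3.3 were used.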

Additional observations from a re-analysis of the deposited data

How the results depend on the processing

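No paired analysis was possible because each condition had 1 sample, so replicate numbers pair no samples (the late and early samples are paired by treatment). With Ct alone the log2 change reversed in Cd-6h (-1.07), and moved in Cd-24h (1.55), root (-2.25), stem (-1.08) and leaf (-1.16). With the mean of the 3 controls, which includes CK3, it was 5.33 in Cd-6h, 6.75 in Cd-24h, -5.21 in root, -3.91 in spikelet, -3.73 in stem and -1.55 in leaf. With the median of the 96 genes leaf was -1.89. In the deposited normalized table root was -1.33, stem 0.13, leaf 1.62 and spikelet -0.39. By the naming used here these are the organ values of the well of BdbZIP38 (-1.32, 0.13, 1.63 and -0.38). In 16 treated samples that table follows the rise of Ct in place of its fall (within 0.1 in at least 82 of 96 genes). This is the change by Ct alone with its sign turned, without BdGAPD. Against the log2 change the sign turned in some of these samples and not in others, such as NaCl-1h (0.76 against 0.80). NaCl-6h follows the rise against CK1 in 89 genes. Cu-6h, Cu-24h, Zn-6h, Zn-24h and Cd-24h followed none of the forms tried, and Cd-24h was 3.02 there.

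Falls of smaller size also turned. Cu-24h was 1.70 with the mean control, 0.005 against the median gene and 0.22 with Ct alone, Mn-24h was 1.81, 0.02 and 0.51, and Zn-24h was 1.77 with the mean control but -1.14 against the median gene. H2O2-6h was 0.09 with Ct alone. In the normalized table PEG-6h was 1.05, NaCl-6h 0.00454, SA-6h 1.59 and 6-BA-6h 1.59. The number of treated samples at least 2-fold higher was 10 with the mean control, 5 with the median gene, 6 with Ct alone and 8 in the normalized table, against 2, and the number at or below 0.5-fold was 13 with the mean control, 4 with the median gene and 5 in the normalized table, against 8.

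The late minus early difference ranged from -1.18 to -0.91 with each treatment left out (adjusted p 0.0625 to 0.145, exact permutation test), and was 1.35 in the normalized table. Without H2O2 it was -0.995. The difference between environmental factors and phytohormones ranged from -1.07 to -0.38, and was 0.96 with Ct alone. The metal difference in level ranged from 4.30 to 4.58, and was -0.13 as log2 changes. Of the genes most like BdbZIP12, 2 stayed without the metals and CK3. The cause of the other moves was not tested.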
